A study of Mus musculus with 8 samples.

Results

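The genes described are 33 genes of the tricarboxylic acid (TCA) cycle, of the breakdown of the branched-chain amino acids leucine, isoleucine and valine, and of ketone body use. They were taken as a list of symbols, and their probes were found through the RefSeq transcript that each probe of the array names. All 33 had at least 1 probe, and together they had 41 of the 39429 probes; 20655 genes of the array could be named in this way. The list holds 13 genes of the cycle itself, 2 of anaplerosis (Pcx and Me3), 15 of branched-chain catabolism and 3 of ketone catabolism. The samples were total RNA of the myocardium, the muscle wall of the heart, from untreated male mice, and each went onto an Agilent mouse array of its own with a single dye. The series is typed as expression profiling while its design text speaks of RNA methylation (m6A); the files hold 1 signal per spot, read here as RNA level. NPRA-/- (3 arrays) came from a conditional knockout line with a floxed NprA gene, a deletion that the series title places in the heart only, and NPRA+/+ (5 arrays) is called wild type. The sources used here do not give the Cre driver, the age of the mice or whether NPRA+/+ mice carried a floxed allele or Cre. Npr1 encodes NPRA, a membrane guanylyl cyclase that natriuretic peptides of the heart switch on.

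The TCA cycle oxidises acetyl groups in the mitochondrial matrix and hands the electrons to the respiratory chain, which makes most of the ATP of a beating heart. Branched-chain amino acids enter by transamination and by the branched-chain ketoacid dehydrogenase complex, which a kinase switches off and a phosphatase switches on, and their carbon reaches the cycle as acetyl-CoA and succinyl-CoA. Ketone bodies made by the liver are turned back into acetyl-CoA in heart mitochondria, with succinyl-CoA from the cycle as the CoA donor.

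Levels below are log2 signals of a probe relative to the 75th percentile of its array (775 to 1253 intensity units). Per array, 79.5% to 92.6% of all probes were well above background, and precision is limited by how few arrays there are. Npr1, the deleted gene, was measured close to background by 1 probe, and no source used here places that probe inside or outside the deleted part, so it does not check the labels. NPRA-/- arrays gave it levels of -6.42, -5.53 and -5.59, NPRA+/+ arrays levels of -4.77, -6.14, -6.55, -6.00 and -5.93 (fitted log2 change 0.03 ± 0.40 SE; limma, adjusted p = 0.978). Arrays were scanned on 4 days, and day 1 alone held both genotypes, namely replicates 2 and 3 of each. No slide, as read from equal scan times, held both genotypes. On day 1 NPRA+/+ replicates 2 and 3 shared slide 1, and NPRA-/- replicates 2 and 3 shared slide 2. Genotype and slide therefore cannot be told apart within scan day 1. NPRA-/- replicate 1 (day 3) and NPRA+/+ replicate 1 (day 4) stood apart from the other arrays in many values below. All 8 of the cardiomyocyte markers used (Myh6, Actc1, Tnnt2, Tnni3, Ryr2, Myl2, Pln and Ttn) were well above background on every array. Of the 5 liver markers, Alb, Ttr and Apoa1 were not well above background on all arrays. Of the markers of other cell types, the 7 mesothelial ones had a median relative change of 1.85 and 1 (Msln) was called higher. Only 3 of the 7 were well above background on every array. Upk3b was so on 1 of 5 NPRA+/+ arrays, and Lrrn4 and Krt19 on 2. They passed the filter of at least 3 arrays only through NPRA-/- arrays, and the median is the value of Krt19. The summed signal of the 7 lay between 1.24 and 1.81 on NPRA-/- arrays and between 0.691 and 1.02 on NPRA+/+ arrays. Their part in the values below was not tested. All 4 neutrophil markers measured had relative changes above 0 (median 0.63), 2 of them without overlap. So had 4 of 5 lymphocyte and thymocyte markers (median 0.29), 2 without overlap, where 14.1% of all probes were higher without overlap. None of these was called (0), and Rag1 was well above background on 1 of 5 NPRA+/+ arrays. None (0) of either list lay in the brightest quintile of probes by signal, whose median fitted change was 0.05, against 0.63 in the dimmest. After quantile normalization the median deviation of the lymphocyte list averaged -0.06 on NPRA-/- and -0.04 on NPRA+/+ arrays. That of the neutrophil list averaged 0.40 and -0.34. The summed signal of the neutrophil markers lay between 1.58 and 1.85 on NPRA-/- arrays and between 0.658 and 1.90 on NPRA+/+ arrays. That of the lymphocyte markers lay between 0.411 and 0.705 on NPRA-/- arrays and between 0.304 and 0.617 on NPRA+/+ arrays, and their part was not tested either. Lists not named so far had median relative changes of -0.33 (erythroid), -0.16 (endothelial), -0.06 (fibroblast), -0.0037 (macrophage), 0.05 (smooth muscle and pericyte) and 0.15 (adipocyte). None of their markers was called (0), and their part was not tested.

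The comparison asked which transcripts of these pathways differ in heart muscle whose natriuretic peptide receptor has been deleted. Of the 33 genes, none was called higher (0) and none lower (0) on NPRA-/- arrays by limma at an adjusted p under 0.05, with 0.317 (Cs) as the smallest adjusted p. This does not show that levels were alike, since 95% intervals of single genes reached fitted changes as low as -0.94 and as high as 2.01. Among all 35329 probes tested, 0.32% were called higher and 0.0283% lower. Without adjustment, 0 of 33 had a p under 0.05, against 19.7% of all probes (18.3% higher, 1.36% lower). The genotypes did not overlap for 1 gene, Acat1, which was higher, while 14.1% of all probes were higher and 1.29% lower without overlap. Within scan day 1, where each genotype had its own slide, the calls among the 33 were also 0, against 15.6% of all probes higher and 1.37% lower. Without NPRA+/+ replicate 1 they were 0, against 11% of all probes higher and 0.529% lower. All 41 probes passed the filter on dim probes, and the probe that stands for each gene was well above background on all 8 arrays. These were bright probes, 28 of the 33 in the brightest quintile of all probes tested and 5 in the quintile below it. The shares of all probes given above are not matched to them for signal. The median of all probes tested was shifted by 0.21 (fitted log2 change, NPRA-/- over NPRA+/+), that of the brightest quintile by 0.05 and that of the dimmest by 0.63. A relative change is the fitted change less the shift of 0.21, and the brightest quintile as a whole had a median relative change of -0.16.

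**Figure D1:**
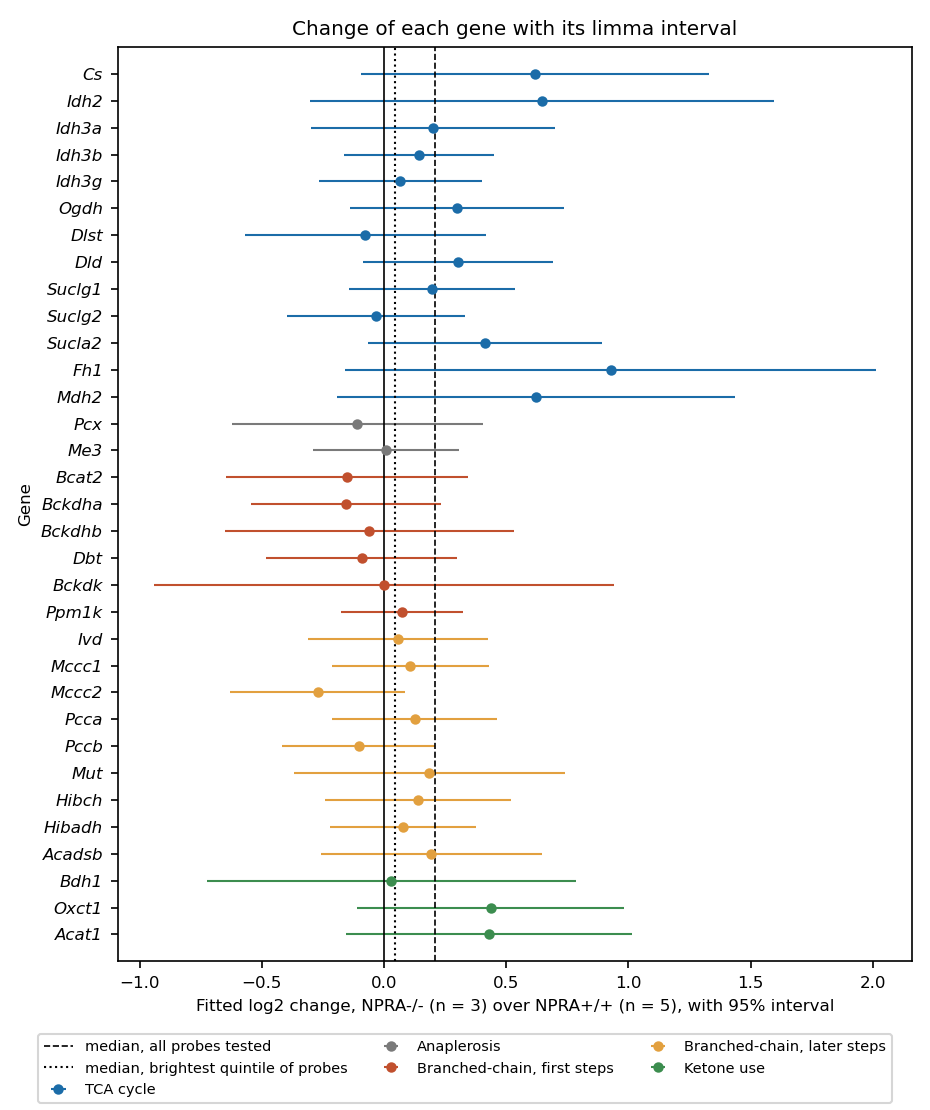
Fitted log2 change of each of the 33 genes, NPRA-/- (n = 3) over NPRA+/+ (n = 5), with its 95% interval from limma, coloured by pathway. Every interval includes 0, from the wide one of Fh1 (-0.16 to 2.01) to the narrow one of Ppm1k (-0.17 to 0.32).

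The medians of the pathways are given side by side. The 13 TCA cycle genes had a median fitted change of 0.30 (relative 0.09), with 11 fitted changes above 0 and 7 relative changes above 0. That relative median turned to -0.10 within scan day 1, to -0.18 with normexp background correction and to -0.0078 with the replicate number as a block. For the 15 branched-chain genes the median was 0.06 (relative -0.15), with 8 fitted and none (0) of the relative changes above 0. The 3 ketone genes had a median of 0.43 (relative 0.22), which was a relative 0.098 within scan day 1, -0.052 with normexp and 0.11 with the replicate block. In the brightest quintile of probes, 60.3% of fitted and 22.7% of relative changes were above 0. Within scan day 1, with 2 arrays of each genotype, the fitted medians were 0.07 for the TCA cycle, -0.05 for branched-chain genes and 0.27 for ketone genes, against -0.01 for the brightest quintile. Without NPRA+/+ replicate 5 the median relative change of the TCA cycle was 0.02, and without replicate 4 it was 0.05. After quantile normalization, which gives all arrays the same distribution of signals, they were 0.02, 0.00 and 0.18. These medians are descriptions without a test, and the difference between pathways was not tested.

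**Figure D2:**
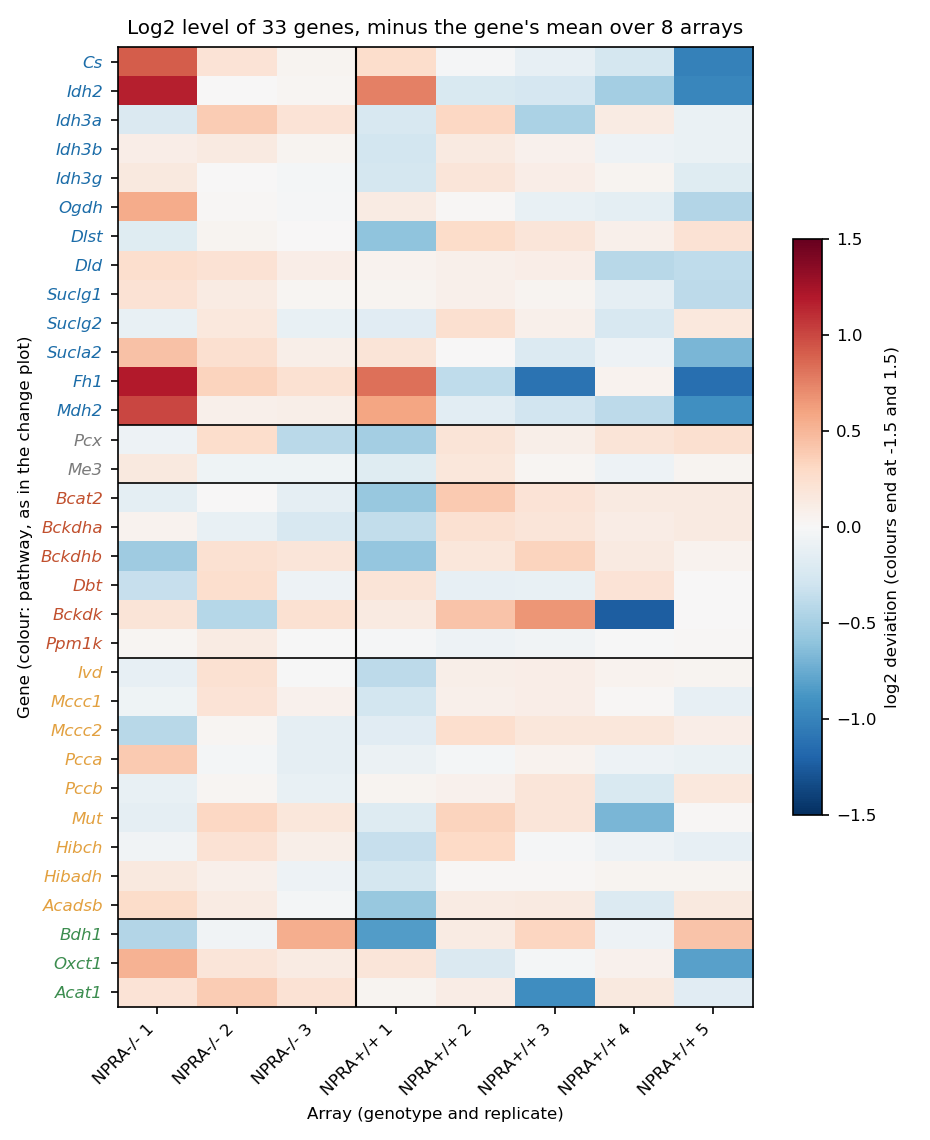
Log2 level of each of the 33 genes (down the page, grouped by pathway) on each of the 8 arrays (across, NPRA-/- left of the line), less the mean of the gene over the arrays. NPRA-/- replicate 1 and NPRA+/+ replicate 1 are high for Cs, Idh2, Fh1 and Mdh2, while NPRA+/+ replicate 1 is low for most branched-chain genes.

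Within the TCA cycle the 4 genes of largest fitted change were Fh1, Idh2, Mdh2 and Cs, and none of them passed the test. Fh1, fumarate hydratase, which turns fumarate into malate, had levels of 6.02, 5.16 and 5.06 on NPRA-/- arrays 1 to 3, against 5.66, 4.45, 3.72, 4.89 and 3.70 on NPRA+/+ arrays 1 to 5. All NPRA-/- arrays lay above 4 of the NPRA+/+ arrays, and NPRA+/+ replicate 1 lay among them. NPRA-/- averaged 5.41 ± 0.53 (SD, n = 3) and NPRA+/+ 4.48 ± 0.83 (SD, n = 5), a fitted change of 0.93 ± 0.47 (SE; limma, adjusted p = 0.323) or 0.72 relative to the shift. The fitted change was 1.02 within scan day 1 and 0.75 after quantile normalization. With array weights, which give discordant arrays less influence, Fh1 was called higher (relative change 0.74; limma, adjusted p = 0.0296), where 24.9% of all probes were.

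Cs, citrate synthase, which opens the cycle by joining acetyl-CoA to oxaloacetate, had levels of 7.35, 6.65 and 6.49 in NPRA-/-, against 6.70, 6.43, 6.32, 6.18 and 5.44 in NPRA+/+. NPRA+/+ replicate 5 was the lowest array by a wide margin and NPRA-/- replicate 1 the highest. The fitted change of Cs was 0.62 ± 0.31 (SE; limma, adjusted p = 0.317), and 0.20 both within scan day 1 and after quantile normalization. Idh2, the NADP-dependent isocitrate dehydrogenase of mitochondria, had levels of 7.70, 6.54 and 6.57 in NPRA-/- and 7.29, 6.31, 6.28, 6.02 and 5.56 in NPRA+/+. Mdh2, malate dehydrogenase, which closes the cycle, had 7.20, 6.27 and 6.28 in NPRA-/- and 6.79, 6.04, 5.90, 5.80 and 5.27 in NPRA+/+. In both genes replicate 1 of each genotype was far above the rest of its group, so the groups overlapped. Their fitted changes were 0.65 ± 0.41 and 0.62 ± 0.35 (SE; limma, adjusted p = 0.433 and 0.375), and 0.26 and 0.30 within scan day 1.

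**Figure D3:**
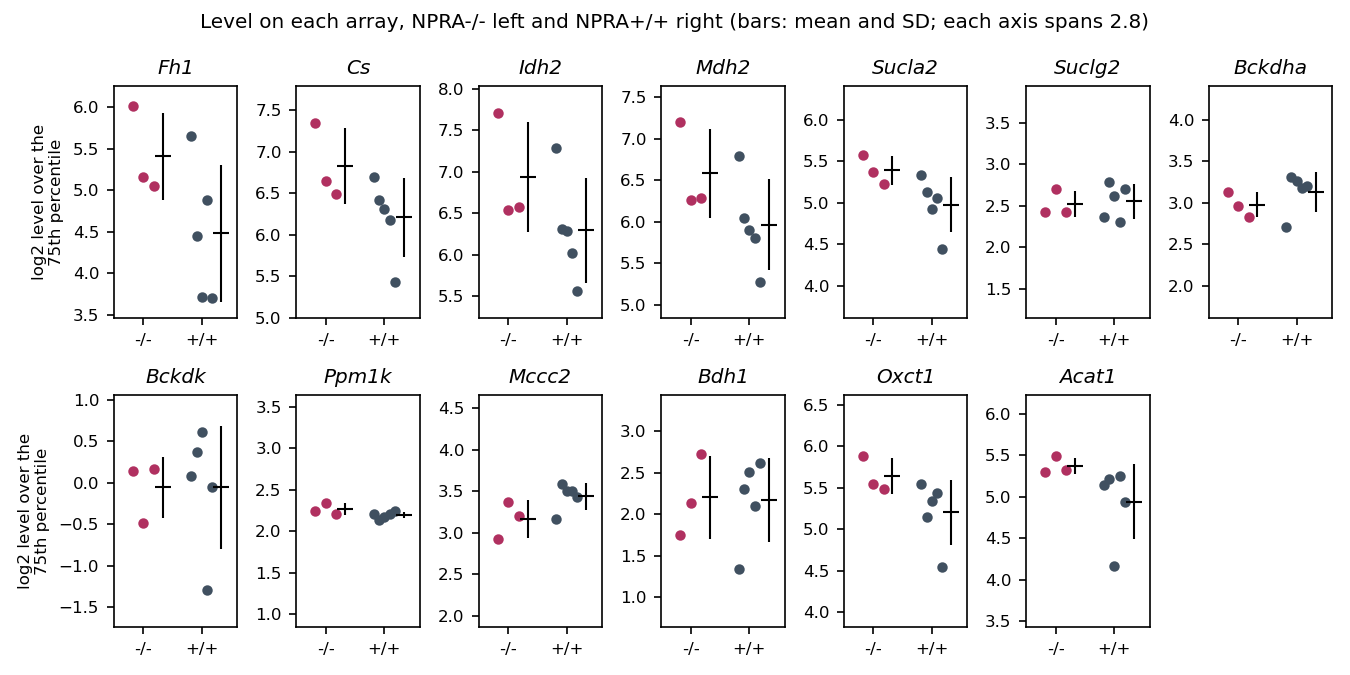
Log2 level over the 75th percentile on each array for 13 of the genes, NPRA-/- (3 points) left of NPRA+/+ (5 points), in the order of the replicate numbers, with the mean and SD as bars; every vertical axis spans the same number of log2 units. Acat1 alone has no overlap between the genotypes, and Ppm1k has the least spread between NPRA+/+ arrays.

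These 4 genes, a group chosen after their values were seen, varied together from array to array. Their median deviation from each gene's own mean was 1.09, 0.14 and 0.06 on NPRA-/- arrays 1 to 3 and 0.67, -0.19, -0.27, -0.33 and -0.99 on NPRA+/+ arrays 1 to 5. The 8 cardiomyocyte markers ran alongside, at 1.26, -0.04 and -0.04 in NPRA-/- and 1.00, -0.22, -0.27, -0.57 and -0.95 in NPRA+/+. The summed linear signal of those markers, in multiples of the 75th percentile, lay between 642 and 1664 on NPRA-/- arrays and between 350 and 1349 on NPRA+/+ arrays, and their part in the result was not tested. In a bulk sample, fewer cells of a type and less RNA per cell cannot be told apart. The 4 genes and all 8 markers lay in the brightest quintile of probes, and the part of array scaling was not tested. After quantile normalization the spread of the 4 genes was smaller, at 0.00, 0.28 and 0.23 in NPRA-/- and -0.08, 0.03, 0.01, 0.08 and -0.37 in NPRA+/+. The markers were then at 0.15, 0.16 and 0.15 in NPRA-/- and 0.14, 0.02, -0.01, -0.13 and -0.18 in NPRA+/+. Scaled to the 75th percentile, the median deviation of the whole cycle was 0.25, 0.13 and 0.04 in NPRA-/- and 0.05, 0.07, -0.11, -0.13 and -0.39 in NPRA+/+. With that scaling NPRA-/- replicate 1 was the highest array for 8 of the 13 genes, and NPRA+/+ replicate 5 the lowest for 7. After quantile normalization these counts were 1 and 3. The median deviation was then -0.18, 0.18 and 0.15 in NPRA-/- and -0.26, 0.16, 0.11, 0.09 and 0.04 in NPRA+/+.

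**Figure D4:**
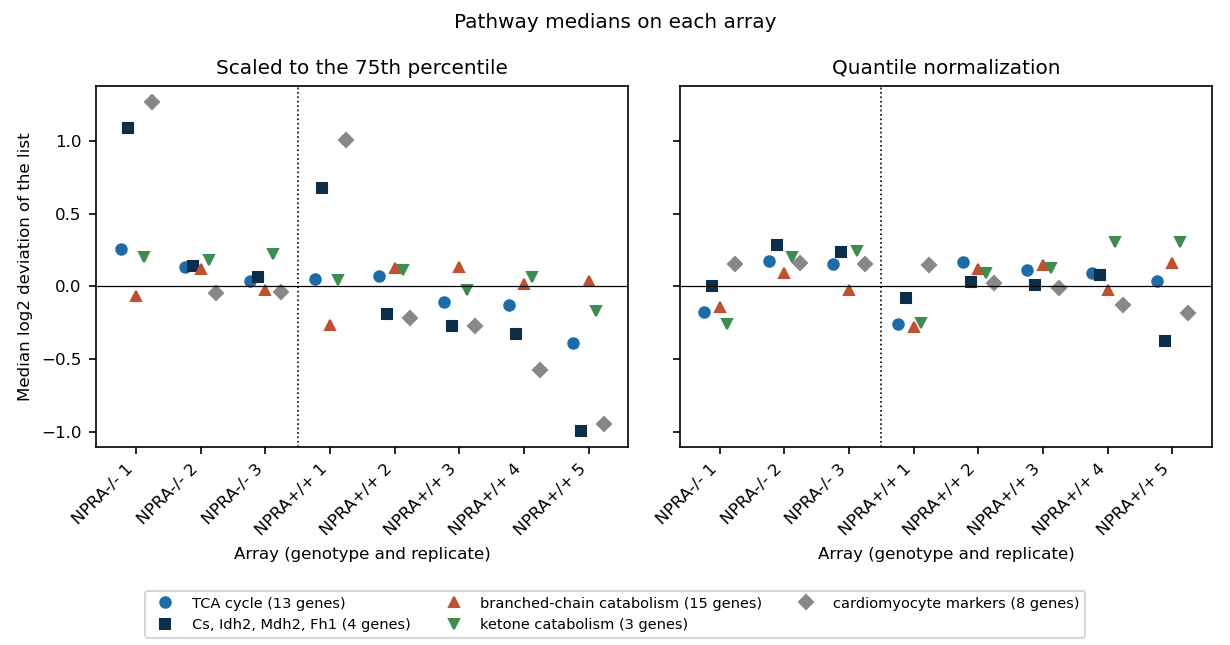
Median log2 deviation of each list from its genes' own means, on each array, NPRA-/- left of the dotted line, with levels scaled to the 75th percentile (left panel) and after quantile normalization (right panel). In the left panel Cs, Idh2, Mdh2 and Fh1 run beside the cardiomyocyte markers, from 1.09 and 1.26 on NPRA-/- replicate 1 to -0.99 and -0.95 on NPRA+/+ replicate 5, and branched-chain genes do not.

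The promoter windows of these 4 genes and of Sucla2 are shown because the 4 varied together and Sucla2 holds a match that they lack. They come from RefSeq (build GRCm38.p6), hold 300 bases that end shortly past the start, and are written along the gene's strand. The windows are Cs at chr10:128337477-128337776 (plus strand), Idh2 at chr7:80115301-80115600 (minus), Mdh2 at chr5:135778399-135778698 (plus), Fh1 at chr1:175625586-175625885 (minus) and Sucla2 at chr14:73552536-73552835 (plus). Capitals mark the motifs searched on both strands: the GC box GGGCGG, the CCAAT box CCAAT, the NRF1 site (nuclear respiratory factor), and the half-site AAGGTCA of estrogen-related receptors.
Cs: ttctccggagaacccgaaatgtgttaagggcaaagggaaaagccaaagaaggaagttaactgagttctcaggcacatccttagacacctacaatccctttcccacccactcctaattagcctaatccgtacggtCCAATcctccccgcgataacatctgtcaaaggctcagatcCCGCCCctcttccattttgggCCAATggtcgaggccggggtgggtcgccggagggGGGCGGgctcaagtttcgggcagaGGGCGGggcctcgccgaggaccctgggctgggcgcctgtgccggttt
Idh2: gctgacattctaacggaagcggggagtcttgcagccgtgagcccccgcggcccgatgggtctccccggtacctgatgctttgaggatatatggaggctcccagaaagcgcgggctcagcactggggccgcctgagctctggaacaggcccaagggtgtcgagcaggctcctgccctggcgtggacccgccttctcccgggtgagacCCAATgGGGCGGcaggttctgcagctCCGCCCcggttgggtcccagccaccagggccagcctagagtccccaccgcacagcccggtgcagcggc
Mdh2: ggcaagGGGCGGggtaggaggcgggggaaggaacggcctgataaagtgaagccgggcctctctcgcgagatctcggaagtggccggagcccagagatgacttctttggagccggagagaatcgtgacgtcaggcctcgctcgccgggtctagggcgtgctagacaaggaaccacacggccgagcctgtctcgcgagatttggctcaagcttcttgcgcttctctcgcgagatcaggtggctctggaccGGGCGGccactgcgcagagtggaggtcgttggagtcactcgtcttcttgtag
Fh1: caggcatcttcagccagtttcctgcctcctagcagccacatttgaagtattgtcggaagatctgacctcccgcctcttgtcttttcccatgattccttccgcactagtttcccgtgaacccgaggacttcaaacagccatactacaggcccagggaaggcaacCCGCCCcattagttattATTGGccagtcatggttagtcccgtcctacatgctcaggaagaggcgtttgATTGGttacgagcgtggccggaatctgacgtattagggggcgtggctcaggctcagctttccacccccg
Sucla2: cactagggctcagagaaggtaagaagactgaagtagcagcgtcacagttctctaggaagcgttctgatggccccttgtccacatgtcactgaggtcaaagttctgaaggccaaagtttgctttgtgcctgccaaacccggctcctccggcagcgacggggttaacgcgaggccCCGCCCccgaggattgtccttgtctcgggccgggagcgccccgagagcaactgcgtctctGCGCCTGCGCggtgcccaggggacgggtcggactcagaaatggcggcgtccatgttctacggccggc
Cs, Idh2, Mdh2 and Fh1 each held a GC box, and all but Mdh2 a CCAAT box. Windows were found for 29 of the 33 genes (39 windows, as some genes have several), and not for Idh3a, Dbt, Acat1 and Mut. A GC box was in 20 of the 39 windows and in 35.7% of all 32851 windows, and a CCAAT box in 24 and in 37.4%. Windows of one gene can overlap, as those of Ogdh do. Counted by gene, a GC box was in 17 of the 29 genes and in 38.2% of all genes with windows. A CCAAT box was in 16 of the 29 and in 41.1% of all. The NRF1 site was in 4 windows, those of Dld, Hibadh, Pccb and Sucla2, and in 4.60% of all windows. The AAGGTCA half-site was in 1 window, of Ogdh, and in 4.72% of all, and its extended form TNAAGGTCA, which includes the half-site, was in none (0) and in 1.28%. A match is a run of letters and not a measured site.

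The 3 subunits of succinyl-CoA ligase, which makes ATP or GTP from succinyl-CoA, did not pass the test. Sucla2, the ATP-forming beta subunit, had levels of 5.57, 5.37 and 5.23 in NPRA-/-, against 5.33, 5.14, 4.93, 5.06 and 4.44 in NPRA+/+. Only NPRA+/+ replicate 1 reached into the range of NPRA-/-, and replicate 5 was the lowest. The fitted change was 0.41 ± 0.21 (SE; limma, adjusted p = 0.319), and 0.27 within scan day 1. Suclg2, the GTP-forming beta subunit, had levels of 2.43, 2.70 and 2.43 in NPRA-/- and 2.37, 2.78, 2.61, 2.30 and 2.70 in NPRA+/+, which overlapped throughout. Its fitted change was -0.03 ± 0.16 (SE; limma, adjusted p = 0.932), with a 95% interval of -0.40 to 0.33. Suclg1, the alpha subunit that both forms share, had 5.42, 5.33 and 5.24 in NPRA-/- and 5.25, 5.28, 5.24, 5.07 and 4.82 in NPRA+/+, a fitted change of 0.20 ± 0.15 (SE; limma, adjusted p = 0.508). The difference between the beta subunits was not tested.

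The NAD-dependent isocitrate dehydrogenase is built from the products of Idh3a, Idh3b and Idh3g. Idh3a averaged 5.02 ± 0.31 in NPRA-/- and 4.82 ± 0.31 in NPRA+/+ (SD, n = 3 and n = 5). Idh3b averaged 5.68 ± 0.05 and 5.54 ± 0.16, and Idh3g 5.15 ± 0.09 and 5.08 ± 0.19, in NPRA-/- and NPRA+/+ arrays. The fitted changes were 0.20, 0.14 and 0.07 with standard errors of 0.22, 0.13 and 0.15, and those of Idh3b and Idh3g were -0.20 and -0.19 after quantile normalization. The 2-oxoglutarate dehydrogenase complex joins Ogdh (E1), Dlst (E2) and Dld (E3), and Dld also serves the pyruvate and branched-chain complexes. Fitted changes were 0.30 ± 0.19 for Ogdh, -0.08 ± 0.21 for Dlst and 0.30 ± 0.17 for Dld (SE; limma, adjusted p = 0.434, 0.883 and 0.369). Of the other 2 probes of Ogdh, one had a fitted change of 0.22 ± 0.21 and the other, a less bright probe, -0.33 ± 0.15 (SE; limma, adjusted p = 0.261), so the probes of this gene disagreed in sign. The second probe of Dld had 0.31 ± 0.19. Among the anaplerotic genes, Pcx, pyruvate carboxylase, which makes oxaloacetate, was at 0.46 ± 0.33 in NPRA-/- and 0.57 ± 0.31 in NPRA+/+. Me3, the NADP-dependent malic enzyme of mitochondria, was at 3.62 ± 0.12 in NPRA-/- and 3.62 ± 0.13 in NPRA+/+, with a 95% interval of the fitted change from -0.29 to 0.31.

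Branched-chain genes had small fitted changes, from -0.27 to 0.19, with standard errors between 0.11 and 0.41. The first steps are Bcat2, the mitochondrial aminotransferase, and the complex of Bckdha and Bckdhb (E1) and Dbt (E2). The median fitted change of these and the 2 regulators was -0.08, with 1 of 6 above 0. Bckdha had levels of 3.13, 2.97 and 2.83 in NPRA-/-, against 2.71, 3.31, 3.26, 3.18 and 3.21 in NPRA+/+. All NPRA-/- arrays lay below 4 of the NPRA+/+ arrays, and NPRA+/+ replicate 1 was the lowest of all. The fitted change was -0.16 ± 0.17 (SE; limma, adjusted p = 0.662) and -0.38 within scan day 1. With array weights Bckdha was called lower (relative change -0.53; limma, adjusted p = 0.0236), where 2.12% of all probes were. Fitted changes of Bcat2, Bckdhb and Dbt were -0.15 ± 0.22, -0.06 ± 0.26 and -0.09 ± 0.17 (SE).

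Bckdk, the kinase that inactivates the complex, had levels of 0.14, -0.48 and 0.17 in NPRA-/-, against 0.08, 0.38, 0.61, -1.29 and -0.04 in NPRA+/+. NPRA+/+ replicate 4 was lowest by far and the groups overlapped. The 95% interval of the fitted change ran from -0.94 to 0.94, the widest of the branched-chain genes, and within scan day 1 the change was -0.65. Ppm1k, the phosphatase that reactivates the complex, had 2.24, 2.34 and 2.21 in NPRA-/- and 2.20, 2.14, 2.17, 2.21 and 2.24 in NPRA+/+. It varied least of all 33 genes between NPRA+/+ arrays (SD 0.04, n = 5), and its fitted change was 0.07 ± 0.11 (SE; limma, adjusted p = 0.758), with a 95% interval of -0.17 to 0.32.

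Of the 9 genes of the later steps, 7 had fitted changes above 0 and their median was 0.11. Mccc1 and Mccc2 encode the subunits of methylcrotonyl-CoA carboxylase in leucine breakdown. Mccc2 had levels of 2.93, 3.37 and 3.20 in NPRA-/-, against 3.16, 3.59, 3.50, 3.51 and 3.44 in NPRA+/+. All NPRA-/- arrays lay below NPRA+/+ replicates 2 to 5 and around replicate 1. The fitted change was -0.27 ± 0.16 (SE; limma, adjusted p = 0.377), the lowest of the 33, and -0.26 within scan day 1, while Mccc1 was at 0.11 ± 0.14. Acadsb, the short branched-chain acyl-CoA dehydrogenase of isoleucine breakdown, had 1.35, 1.20 and 1.05 in NPRA-/- and 0.52, 1.21, 1.22, 0.88 and 1.23 in NPRA+/+. Its fitted change of 0.19 ± 0.20 (SE; limma, adjusted p = 0.640) was -0.09 within scan day 1. Ivd, isovaleryl-CoA dehydrogenase, had a fitted change of 0.06 ± 0.16, and the valine genes Hibch and Hibadh 0.14 ± 0.17 and 0.08 ± 0.13. Pcca and Pccb, the subunits of propionyl-CoA carboxylase, had 0.13 ± 0.15 and -0.10 ± 0.14, and Mut, methylmalonyl-CoA mutase (Mmut in RefSeq), 0.19 ± 0.24. Across arrays the 15 branched-chain genes had median deviations of -0.07, 0.12 and -0.03 in NPRA-/- and -0.27, 0.13, 0.13, 0.02 and 0.04 in NPRA+/+. NPRA+/+ replicate 1, high for Cs and Idh2, was the lowest array for 8 of the 15, also after quantile normalization. Without it the median relative change was -0.20.

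The ketone genes follow the order of the pathway. Bdh1, which oxidises beta-hydroxybutyrate to acetoacetate, had levels of 1.75, 2.14 and 2.73 in NPRA-/-, against 1.35, 2.30, 2.51, 2.11 and 2.62 in NPRA+/+. The arrays of both genotypes were spread over the same range, and the fitted change was 0.03 ± 0.33 (SE; limma, adjusted p = 0.975). Of its 2 other probes, one had a fitted change of 0.24 ± 0.20. The other, a dimmer one, separated the genotypes without overlap, at -1.95 ± 0.34 in NPRA-/- and -2.58 ± 0.19 in NPRA+/+ (SD, n = 3 and n = 5), with 0.63 ± 0.19 (SE; limma, adjusted p = 0.127). This dimmer probe lay in the middle quintile by signal, whose median fitted change was 0.22, and 14.1% of all probes were higher without overlap. Oxct1, the CoA transferase that activates acetoacetate and that liver lacks, had 5.88, 5.55 and 5.48 in NPRA-/- and 5.54, 5.15, 5.34, 5.43 and 4.55 in NPRA+/+. NPRA+/+ replicate 1 overlapped with NPRA-/-, and replicate 5 was the lowest. The fitted change was 0.44 ± 0.24 (SE; limma, adjusted p = 0.354), 0.27 within scan day 1 and 0.18 after quantile normalization. Acat1, the thiolase that splits acetoacetyl-CoA, had 5.30, 5.48 and 5.32 in NPRA-/- and 5.15, 5.21, 4.16, 5.25 and 4.93 in NPRA+/+. All NPRA-/- arrays lay above all NPRA+/+ arrays, narrowly above replicates 1, 2 and 4 and far above replicate 3. The fitted change was 0.43 ± 0.25 (SE; limma, adjusted p = 0.394), 0.72 within scan day 1 and 0.19 after quantile normalization. Without NPRA+/+ replicate 3 the median relative change of the ketone genes was 0.02, without replicate 5 it was 0.08, and without NPRA-/- replicate 1 or 2 it was 0.13 or 0.15.

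Among 50 further genes of these pathways, none was called higher (0) or lower (0) by limma over all probes, and without adjustment 6 of 50 were higher and 0 lower (p under 0.05), where 18.3% of all probes were higher and 1.36% lower. Their median fitted change was 0.18 (relative -0.03). In the further TCA cycle genes the smallest p belonged to Aco1, the cytosolic aconitase, at -2.30 ± 0.38 in NPRA-/- and -3.18 ± 0.22 in NPRA+/+ (SD, n = 3 and n = 5), with a fitted change of 0.88 ± 0.21 (SE; limma, adjusted p = 0.0846). The genotypes did not overlap. Slc25a11, the 2-oxoglutarate carrier, had 0.33 ± 0.13 (SE; limma, adjusted p = 0.221), fitted without NPRA+/+ replicate 5, where its spot was an outlier. For entry of pyruvate, Pdk4, a kinase that inactivates pyruvate dehydrogenase, was at 4.97 ± 0.29 in NPRA-/- and 5.51 ± 0.37 in NPRA+/+, a fitted change of -0.54 ± 0.24 (SE; limma, adjusted p = 0.260). Dlat, the E2 subunit of pyruvate dehydrogenase, had 0.28 ± 0.16, fitted without NPRA+/+ replicate 4.

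In the further branched-chain genes, Hmgcll1, a lyase related to the one that ends leucine breakdown, had a fitted change of 0.69 ± 0.26 (SE; limma, adjusted p = 0.199) and was well above background on 4 of 5 NPRA+/+ arrays. Bcat1, the cytosolic aminotransferase, had 0.39 ± 0.16 (SE; limma, adjusted p = 0.224). Klf15, a transcription factor that regulates branched-chain catabolism in muscle, was at 3.09 ± 0.34 in NPRA-/- and 3.08 ± 0.32 in NPRA+/+. Bdh2, a cytosolic relative of Bdh1, was at -1.95 ± 0.21 in NPRA-/- and -2.46 ± 0.08 in NPRA+/+ without overlap, with a fitted change of 0.52 ± 0.13 (SE; limma, adjusted p = 0.101). Slc16a1, which encodes the transporter MCT1 that carries lactate and ketone bodies, had 0.79 ± 0.34 (SE; limma, adjusted p = 0.242), with NPRA+/+ replicate 1 at the level of NPRA-/-. Aco1, Bcat1, Bdh2 and Slc16a1 lay in the middle quintile of probes by signal, whose median fitted change was 0.22, and Hmgcll1 in the dimmest quintile, whose median was 0.63.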

How the data were processed

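Total RNA of 8 myocardium samples was labelled with Cy3 and hybridised to 1 array each. The deposited scanner files of the authors give each spot a linear intensity from Agilent Feature Extraction 11.0.1.1, background-subtracted within each array and not scaled between arrays, per the file headers. They also hold flags of 0 or 1, a coded score per spot for background, saturation and outliers. The deposited series table holds log2 values with a normalization that the sources used here do not state; its columns had a common median of 7.04 and ranked probes as their own arrays did (rank correlation of at least 0.999).

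Control spots were left out, outlier spots were set to missing, and log2 signals of a probe were averaged. The 75th percentile of all non-control spots was subtracted. Probes well above background on at least 3 arrays were tested (35329). The gene symbols came from RefSeq transcripts of GRCm38.p6 (27228 of 39429 probes matched); probe coordinates are left out because the design of the array rests on an older build. The brightest tested probe stood for a gene. The genotype term was tested by limma 3.58.1 (R 4.3.3; two-sided, Benjamini-Hochberg over all probes, threshold 0.05). The fit was tested on simulated data. Values on every array are given for the 3 genes of smallest p in the TCA and branched-chain lists, all ketone genes, genes without overlap, Bckdk, Ppm1k, the succinyl-CoA ligase genes and those of largest change; of further pathway genes the 2 of smallest p per list, Pdk4 and Klf15 are named. The members and lists were chosen with earlier results of these data known.

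Labels call the samples biological repetitions but name no animals, and p-values therefore measure only how these samples spread. The source names give NPRA+/+ replicates 1, 2 and 3 the same number, 1, and replicates 4 and 5 the numbers 2 and 3. Whether the 5 NPRA+/+ arrays came from 5 independent sources is not stated, though n = 5 is used here. No array repeated another's values. Repetition numbers 1 to 3 occur in both genotypes. Arrays of equal number deviated from the mean of their genotype together, with correlations of 0.63, 0.28 and 0.36 over probes. These lay above the limit set for treating them as pairs, though some unequally numbered pairs did too. Correlations of unequally numbered pairs ran from -0.60 to 0.33. Replicates 2 and 3 of both genotypes also shared scan day 1, so the correlations do not show that equal numbers are pairs. Alternatives were other normalizations, normexp background correction (on median spot signals, offset 50), filters, blocks, array weights and leaving out arrays, as given in the closing section.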

Additional observations from a re-analysis of the deposited data

Results flagged for a closer look

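Of the 33 genes, 6 had an NPRA+/+ array that lay apart from the other 4 of its group by more than Dixon's critical value of 0.71 for 5 samples. In each of these it was the level of NPRA+/+ replicate 1, the array of scan day 4, that was lowest. The levels were 3.71 for Dlst (next lowest 4.38), 0.024 for Pcx (0.61), 0.094 for Bcat2 (0.80), 2.71 for Bckdha (3.18), 2.99 for Ivd (3.41) and 3.41 for Hibadh (3.69). Chance flags about 1 group in 20. The genes share the array, so the 6 are not independent, and the part of scan day was not tested.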

How the results depend on the processing

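No gene of the 33 was called in either direction under the alternatives run, leaving out each array included, except with array weights, which called 1 higher (Fh1) and 1 lower (Bckdha). All values here are relative changes (log2, NPRA-/- over NPRA+/+). The median of branched-chain genes was 0.0050 with quantile normalization and 0.0022 in the deposited series table. Normexp gave -0.18 for the TCA cycle, -0.39 for branched-chain and -0.052 for ketone genes. Scan day as a block, or day 1 alone, gave -0.10 for the TCA cycle and 0.098 for ketone genes. With the replicate block by repetition number the TCA cycle median was -0.0078, of other sign than without it, and the ketone median 0.11, and the block changed no call of a member. Leaving out 1 array each gave medians of 0.019 to 0.13 for the TCA cycle, -0.20 to -0.12 for branched-chain and 0.024 to 0.29 for ketone genes. Of 462 values of single genes under the other alternatives, 412 kept their sign and 50 did not, and 17 genes kept it in all of these. Those of other sign were Idh3a 0.022, Ogdh -0.17, Ppm1k 0.060, Ivd 0.0050, Mccc1 0.063, Pcca 0.11, Mut 0.16, Hibch 0.095, Hibadh 0.0065, Acadsb 0.18, Bdh1 0.017 with quantile normalization. They were Idh3a 0.016, Ogdh -0.20, Ppm1k 0.059, Ivd 0.0022, Mccc1 0.062, Pcca 0.11, Mut 0.16, Hibch 0.094, Hibadh 0.0034, Acadsb 0.18, Bdh1 0.017 in the series table. They were Ogdh -0.13, Dld -0.18, Sucla2 -0.017, Acat1 -0.052 with normexp, Idh3a 0.042, Suclg1 0.038, Mut 0.027, Acadsb 0.035 among probes well above background on all 8 arrays, and Ogdh -0.16, Bdh1 0.076 with the probes of a gene averaged. With the replicate block they were Idh3a 0.079, Ogdh -0.0078, Dld -0.066, Acadsb 0.041 by repetition number and Suclg1 0.037, Mut 0.00037 by source name number. They were Suclg1 0.022, Acadsb 0.050 with slide as a random block, Idh3a 0.21, Ogdh -0.13, Dld -0.10, Dbt 0.030 with scan day, and Idh3a 0.092, Ogdh -0.066 with array weights. Leaving out 1 array turned the sign in 20 of 264 values, with ranges of Acadsb -0.15 to 0.053, Bdh1 -0.45 to 0.072, Hibch -0.15 to 0.024, Idh3a -0.16 to 0.18, Mut -0.17 to 0.12, Ogdh -0.076 to 0.18, Pcca -0.22 to 0.012, Suclg1 -0.078 to 0.022. The cause of these changes was not tested. Over all probes, 113 higher and 10 lower calls compare with 0 and 0 under quantile normalization, median scaling, normexp, the series table, the repetition block, slide, scan day as a block, the percentile over probes and leaving out any array but NPRA+/+ replicate 1. They compare with 183 and 10 without a filter, 3 and 0 with probes well above background on all 8 arrays, 1 and 21 with the source name block, 3901 and 187 without NPRA+/+ replicate 1, 5494 and 485 within scan day 1, and 8808 and 749 with array weights. The percentile over probes without outlier spots, chosen after seeing the data, changed no member's call. The probe of each of the 33 genes was well above background on all 8 arrays, yet the medians differed under the normexp setting, as given above. That setting also used median spot signals and an offset of 50, and the parts were not tested apart.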

Other observations

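Bcat1, the cytosolic branched-chain aminotransferase, was measured by 3 probes, a gene singled out after its values were seen. The probe that stands for it had a fitted change of 0.39 ± 0.16. A second probe was at -2.35 ± 0.36 in NPRA-/- and -3.59 ± 0.28 in NPRA+/+ (SD, n = 3 and n = 5), with a fitted change of 1.25 ± 0.22 (SE; limma, adjusted p = 0.0613). Its genotypes did not overlap, where 14.1% of all probes were higher without overlap. Dimmer probes were shifted more as a whole. Their median fitted change was 0.22 in the middle quintile by signal, 0.40 in the next dimmer and 0.63 in the dimmest, against 0.05 in the brightest. The third, well above background on 4 of 5 NPRA+/+ arrays, had 0.56 ± 0.28.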
